A study of Homo sapiens with 6 samples.

Results

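The respiratory chain passes electrons from NADH and succinate to oxygen in the inner membrane of mitochondria, and ATP synthase uses the proton gradient that the chain builds up. Complex I oxidizes NADH, complex II is succinate dehydrogenase, complex III passes electrons from ubiquinol to cytochrome c, complex IV reduces oxygen, and complex V is ATP synthase. Most of the subunits are encoded in the nucleus, and several of complex IV come in a ubiquitous form and in a form made mainly in muscle, heart or testis. The nuclear genes of these subunits were picked from the deposited RNA sequencing table by symbol, as NDUFA, NDUFB, NDUFC, NDUFS or NDUFV with a number, SDHA to SDHD, and all symbols that begin with UQCR, COX4 to COX8 or ATP5. This gave 84 of the 17100 genes in the table, with 38 in complex I, 4 in complex II, 9 in complex III, 15 in complex IV and 18 in complex V. The symbols also bring in genes that are not subunits of the complex they are named for. These are NDUFA4, which is now counted with complex IV, its paralog NDUFA4L2 (current symbol COXFA4L2), the supercomplex factor COX7A2L, and ATP5S and ATP5SL. The subunits encoded in mitochondrial DNA, and COX4I2 and COX6A2, were not analysed here.

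MDA-MB-231, a human triple-negative breast cancer cell line, was exposed to 1 µM guadecitabine (SGI-110) for 96 h and kept without drug for 24 h before RNA was taken, or was given vehicle. Guadecitabine releases decitabine, which is built into DNA and inhibits DNA methyltransferases. Each condition had 3 libraries, which the study describes as independent experiments, all of this one cell line. Total counts ranged from 8792127 in guadecitabine replicate 2 to 22277442 in vehicle replicate 3, and the members took up 1.08% to 1.20% of the counts of a library. Vehicle replicate 3 had 20 genes at 0 counts against 1593 to 2517 in the other libraries, and a median of 16 counts over 533 genes with at most 1 count in each of the other vehicle libraries and 11 or more summed over guadecitabine. The cell line's defining markers VIM, CD44, EGFR, KRT8, KRT18, CAV1 and AXL were present in every library, with a summed level of 146590 to 154420 normalized counts in vehicle and 142910 to 161010 after guadecitabine. That sum hides moves in both directions. VIM and CD44 rose (log2 fold change 0.33 and 1.18, edgeR adjusted p = 0.0258 and 2.66e-05). KRT8, CAV1 and AXL fell (-0.56, -1.19 and -1.27, edgeR adjusted p = 0.00477, 0.000112 and 4.44e-05). ESR1 and PGR had at most 1 count in all libraries except vehicle replicate 3, with 67 and 43. ERBB2 had 552 to 1974 counts and CDH1 6 to 87, and both fell (-0.74 and -1.62, edgeR adjusted p = 0.00122 and 0.0313). In bulk RNA, fewer cells that express a gene and less RNA per cell cannot be told apart.

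Most respiratory chain subunits were not called, and those that were moved in both directions. A gene was called when its adjusted p in edgeR's quasi-likelihood test, corrected by Benjamini-Hochberg over the 13322 genes that passed the filter on low counts, was under 0.05. Of the 84 members 81 passed that filter, and 9 were higher and 10 lower after guadecitabine, or 23.5% of those tested. Over all genes tested 37.7% were called, 19.3% higher and 18.4% lower, against 11.1% and 12.3% of the members. The median log2 fold change was -0.06 over the members and 0.02 over all genes. The 95% confidence interval of the fold change lay within 2-fold of no change, in both directions, for 77 of the 81, and within 1.5-fold for 53. The normalized counts of the groups did not overlap for 26 of the 81, or 32.1%, against 51.7% of all genes tested. COX7A1 was the only member called against a 2-fold threshold, which 5.22% of all genes passed.

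**Figure D1:**
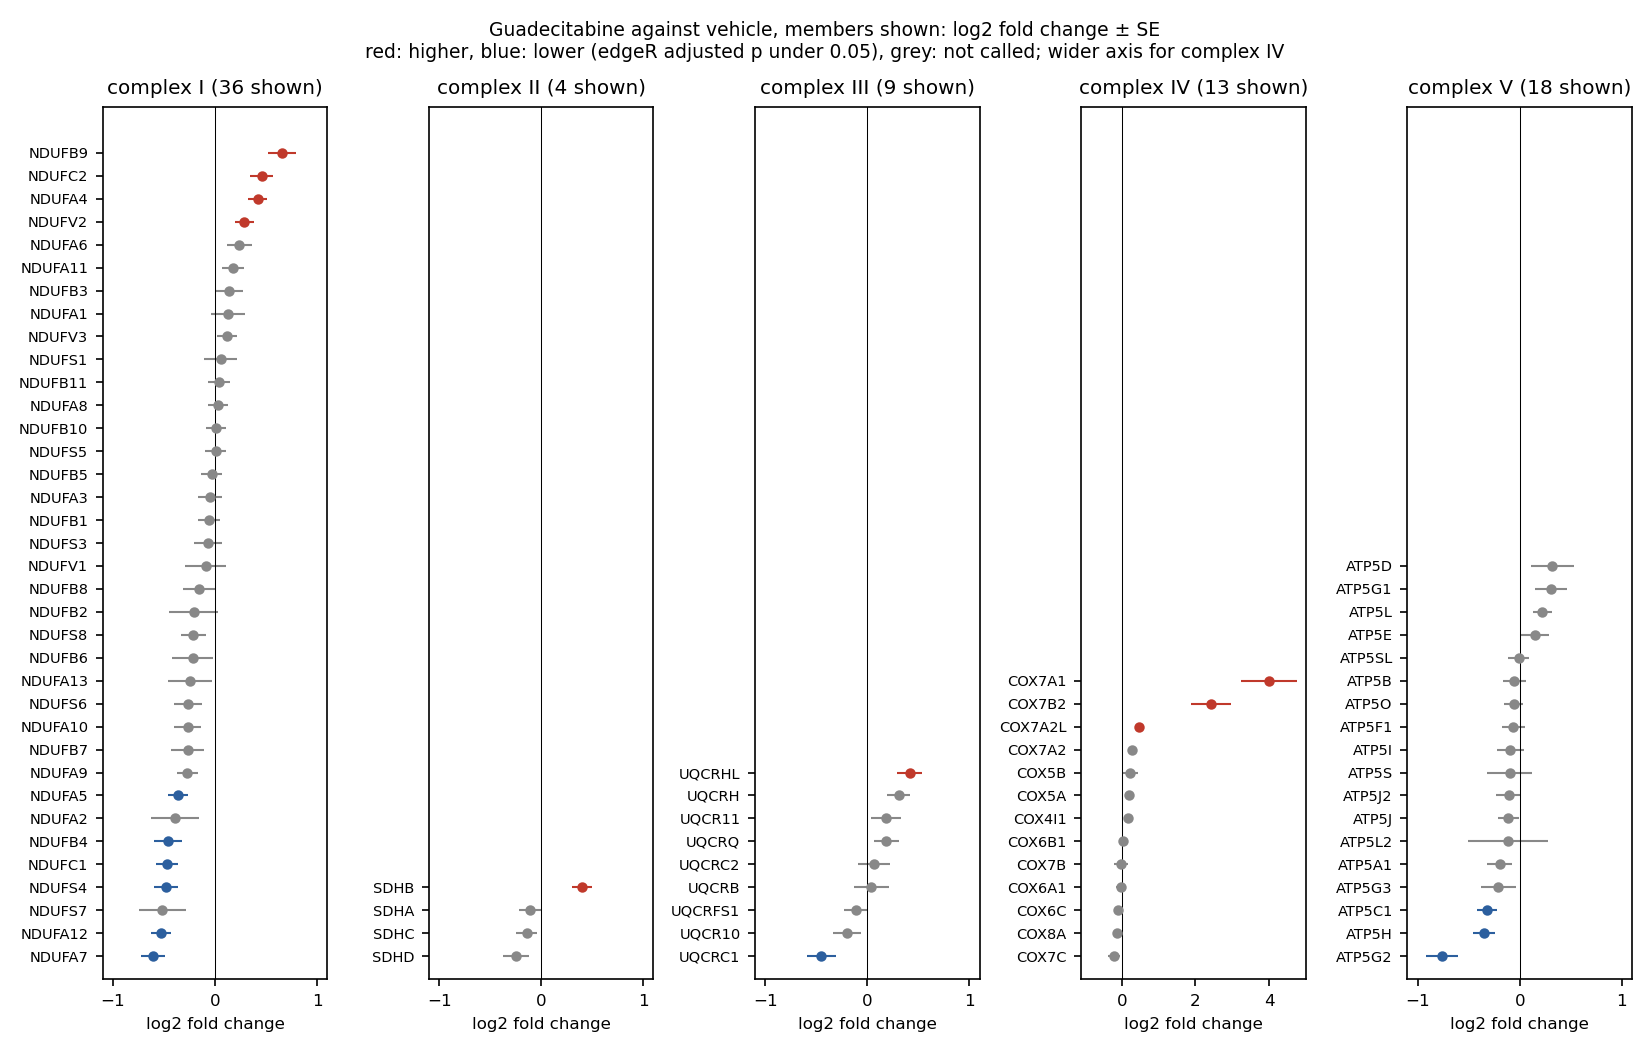
Log2 fold change of the members shown, guadecitabine against vehicle, with the standard error as bars and 1 panel for each complex; red points were called higher, blue points lower and grey points neither. Most points lie within 0.5 of 0 on the log2 scale, and the panel of complex IV has a wider axis because COX7A1 reached 4.01 and COX7B2 2.43.

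Each complex held at least 1 called member, in a fit that called 19.3% of all genes tested higher and 18.4% lower. Complex I had 4 members higher and 6 lower of 37 tested, complex II 1 higher of 4, complex III 1 higher and 1 lower of 9, complex IV 3 higher of 13, and complex V 3 lower of 18. The complexes are counted by symbol here. NDUFA4 is thus among the higher members of complex I, COX7A2L among those of complex IV, and ATP5S and ATP5SL, neither called, are in complex V. NDUFA4L2, also placed in complex I, was not tested. The median log2 fold change was -0.09 in complex I, -0.13 in complex II, 0.06 in complex III, 0.16 in complex IV and -0.09 in complex V. The summed normalized counts of complex I were 71405 ± 5815 in vehicle and 67162 ± 6654 after guadecitabine (SD, n = 3), a ratio of 0.941. The ratio was 0.982 for complex II, 0.993 for complex III, 1.04 for complex IV and 0.951 for complex V, and in each complex the difference between the means was smaller than the larger SD. Among the 22 members counted as core, the central subunits of each complex, 2 were higher and 3 lower, and among the 51 accessory subunits 2 were higher and 7 lower.

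The balance of higher and lower calls depended on the treatment of transcript length. The members are short, with a median exon length of 824 bp against 2938.5 bp for all genes tested. With an offset for exon length in each library 6 members were higher and 21 lower, while 40.9% of all genes tested were called, and with offsets for length and GC content, added after the data were seen, 6 were higher and 30 lower, with 47.9% of all genes called. With vehicle replicate 3 left out, 7 were higher and 16 lower, with 41.9% of all genes called, and with guadecitabine replicate 2 also left out 9 were higher and 25 lower, with 50.3% of all genes called. The median log2 fold change of the members was -0.18 with the length offset and -0.24 with both offsets. Guadecitabine replicate 2 stood apart by GC content. Relative to the mean of guadecitabine replicates 1 and 3, its log2 level had a median of 0.24 over the 19 members with a GC content of at least 55% and of 0.01 over the 23 members under 45%. Spearman's rho between GC content and this deviation was 0.37 over the 81 members and 0.58 over 13242 genes, which share the libraries and are not independent. The part of GC content and length in the calls was not tested beyond these offsets.

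**Figure D2:**
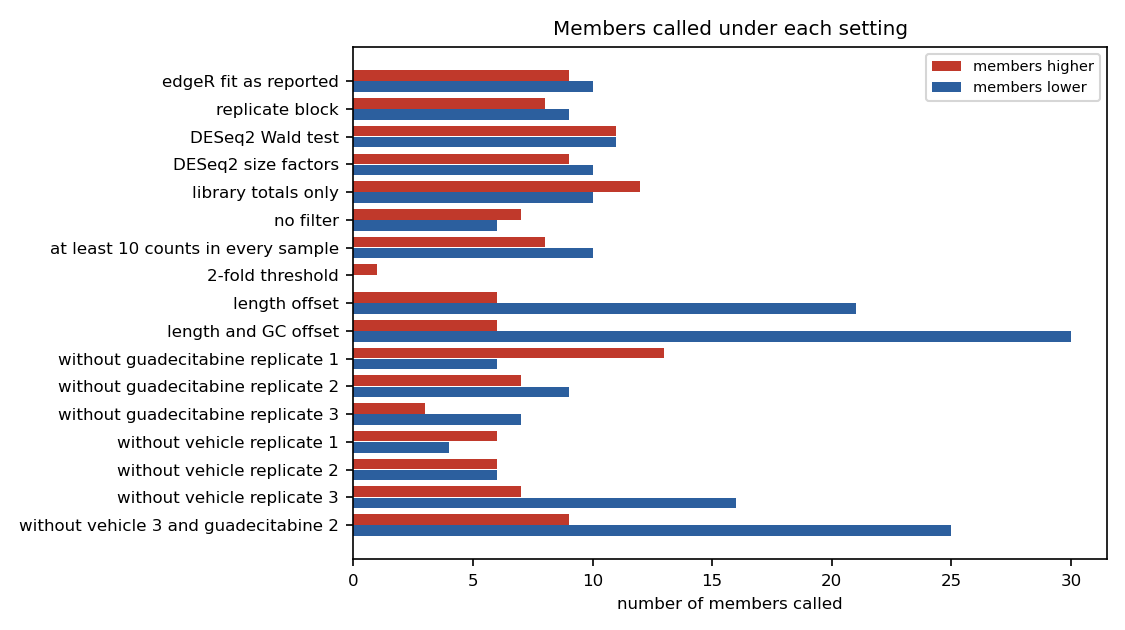
Number of members called higher (red) and lower (blue) in each setting, with the fit as reported at the top. The number higher lies between 3 and 13 in every setting but the 2-fold threshold, while the number lower reaches 21 with the length offset and 30 with offsets for length and GC content. Outside the 2-fold threshold, the share of all genes tested that was called ran from 24.5% to 50.3%.

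In complex I, 6 accessory subunits fell. NDUFA7, NDUFA12 and NDUFS4 belong to the arm in the matrix, which oxidizes NADH, and NDUFC1 to the arm in the membrane, which pumps protons. NDUFA12 had 1697, 1663 and 1593 normalized counts in vehicle replicates 1 to 3 and 1129, 1154 and 1151 after guadecitabine. The groups lay far apart compared with their spread. Its log2 fold change was -0.53 (SE 0.0943, edgeR adjusted p = 0.00235), or 0.693-fold of vehicle. NDUFA7 had 617, 629 and 570.0 normalized counts in vehicle and 353, 398 and 439 after guadecitabine, a log2 fold change of -0.61 (SE 0.117, edgeR adjusted p = 0.00337). Each guadecitabine library was below each vehicle library. NDUFC1 had 959, 817 and 956 normalized counts in vehicle and 657, 630.1 and 685 after guadecitabine, with a log2 fold change of -0.47 (SE 0.108, edgeR adjusted p = 0.00852). The table's span of NDUFC1 overlaps that of NAA15 on the opposite strand over 1030 bp, and reads of these genes may be hard to separate, as use of strand in the counting is not given in the sources used here. NDUFS4 had 1126, 1072 and 938 normalized counts in vehicle and 670.4, 781 and 799 after guadecitabine, with a log2 fold change of -0.48 (SE 0.119, edgeR adjusted p = 0.0118). It also fell below all vehicle libraries in each replicate. The accessory subunits NDUFA5 and NDUFB4, named here after their values were seen, completed the 6 that fell, with log2 fold changes of -0.36 and -0.46 (edgeR adjusted p = 0.0171 and 0.0263). The call of NDUFA5 was kept in 9 of 14 alternatives and lost with either offset, without the filter and without vehicle replicate 1 or 2. That of NDUFB4 was kept in 10 and lost without guadecitabine replicate 1 or 2 or vehicle replicate 1 or 3. NDUFA12, NDUFA7 and NDUFC1 were called lower in all 14 single alternatives to the fit that set no fold threshold, and NDUFS4 in 13, all but the fit without vehicle replicate 1. On hg19 NDUFA12 lies on chromosome 12 from 95365104 to 95397489 and NDUFA7 on chromosome 19 from 8376184 to 8386280, both on the minus strand, and at both genes all 50-base stretches of the exons occur once in the genome.

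NDUFB9, an accessory subunit of the membrane arm, was the member of complex I with the largest rise. It had 963, 932 and 797 normalized counts in vehicle and 1179.8, 1565 and 1504 after guadecitabine. All guadecitabine libraries were above all vehicle libraries, replicate 1 by the least. The log2 fold change was 0.66 (SE 0.137, edgeR adjusted p = 0.00517), and the call held in all 14 alternatives. NDUFC2, also of the membrane arm, had 765, 746 and 844 normalized counts in vehicle and 1006, 1201 and 1030.5 after guadecitabine, a log2 fold change of 0.46 (SE 0.113, edgeR adjusted p = 0.0120). NDUFC1 fell and NDUFC2 rose, though both sit in the same arm, and NDUFC2 was not called without vehicle replicate 1 or vehicle replicate 2. NDUFA4 had 1787, 1786 and 1815 normalized counts in vehicle and 2326, 2313 and 2558 after guadecitabine, a log2 fold change of 0.42 (SE 0.0962, edgeR adjusted p = 0.00854). Without guadecitabine replicate 3 and with the length and GC offsets NDUFA4 was no longer called.

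The core subunits of complex I, which hold the flavin and the iron-sulfur clusters, were mostly not called. NDUFV2, which carries an iron-sulfur cluster next to the flavin, had 1478, 1435 and 1442 normalized counts in vehicle and 1834, 1746 and 1731 after guadecitabine. Its rise was small and without overlap, with a log2 fold change of 0.29 (SE 0.0938, edgeR adjusted p = 0.0385), and the call was kept in 4 of 14 alternatives. With the length and GC offsets its log2 fold change was 0.01 (edgeR adjusted p = 0.945). The values of NDUFV2 are less certain, since 70.75% of the 50-base stretches of its exons occur once in the genome. NDUFV1, the flavin subunit, had 4434, 4568 and 3039.8 normalized counts in vehicle and 2954, 4809 and 3546 after guadecitabine, and the groups overlapped. NDUFS7, the subunit next to the ubiquinone site, had 2165, 2538 and 1578 normalized counts in vehicle and 1052, 1892 and 1469 after guadecitabine, a log2 fold change of -0.51 (SE 0.227, edgeR adjusted p = 0.105). Its interval, from -1.03 to -0.0022, was wide, and the spread within each group was large. NDUFS7 was called lower with the length offset (-0.69, edgeR adjusted p = 0.0104), with the length and GC offsets (-0.57, edgeR adjusted p = 0.00184), without vehicle replicate 3 (-0.68, edgeR adjusted p = 0.0212), without guadecitabine replicate 2 (-0.73, edgeR adjusted p = 0.0335), and with both of these libraries left out (-0.90, edgeR adjusted p = 2.68e-05). NDUFS1, NDUFS3 and NDUFS8 had log2 fold changes of 0.05, -0.07 and -0.21, with overlapping groups, and the lowest edgeR adjusted p of these was 0.199.

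In complex II, SDHB alone was called. SDHB, the iron-sulfur subunit, had 1776, 1714 and 1819.6 normalized counts in vehicle and 2195, 2374 and 2441 after guadecitabine. The groups did not overlap, and the log2 fold change was 0.40 (SE 0.0973, edgeR adjusted p = 0.0110), or 1.32-fold. SDHA, the flavin subunit, had 4686, 4546 and 4067 normalized counts in vehicle and 3796, 4047 and 4492 after guadecitabine, a log2 fold change of -0.11 with a 95% interval from -0.35 to 0.13. The membrane anchors SDHC and SDHD had log2 fold changes of -0.14 and -0.25 (edgeR adjusted p = 0.289 and 0.163). SDHD was called lower with the length offset (-0.35, edgeR adjusted p = 0.0310), with the length and GC offsets (-0.49, edgeR adjusted p = 0.00684), and with vehicle replicate 3 and guadecitabine replicate 2 both left out (-0.43, edgeR adjusted p = 0.00597). The values of SDHC, SDHD and SDHA are less certain, since 33.6%, 50.7% and 71.9% of the 50-base stretches of their exons occur once in the genome. The percentage of SDHC comes from 1018 stretches of the closest GENCODE transcript, which is shorter than the 2837 bp of exon counted. SDHB was not called with the length offset or without vehicle replicate 2 or guadecitabine replicate 3, and with the length and GC offsets its log2 fold change was 0.18 (edgeR adjusted p = 0.150).

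Complex III had 1 call in each direction, on a core subunit and on a retrogene copy. UQCRC1, a core protein on the matrix side, had 6515, 6398 and 5219.6 normalized counts in vehicle and 3673, 5089.7 and 4520.1 after guadecitabine. The lowest vehicle library and the highest guadecitabine library were close, and the log2 fold change was -0.45 (SE 0.143, edgeR adjusted p = 0.0340). The call was kept in 9 of 14 alternatives, and it was lost without the filter and without guadecitabine replicate 1, guadecitabine replicate 3, vehicle replicate 1 or vehicle replicate 2. UQCRC2, the other core protein, had 1195, 1197 and 1269.6 normalized counts in vehicle and 1600.3, 1004 and 1208 after guadecitabine, and UQCRFS1, the Rieske iron-sulfur protein, had a log2 fold change of -0.12 (edgeR adjusted p = 0.439). Neither was called. UQCRHL, an intronless copy of the hinge protein gene UQCRH, had 990.1, 1113 and 918 normalized counts in vehicle and 1173, 1400.5 and 1455 after guadecitabine, a log2 fold change of 0.41 (SE 0.124, edgeR adjusted p = 0.0271). The call was kept in 7 of 14 alternatives and lost without the filter, with the length offset, and without guadecitabine replicate 2 or 3 or vehicle replicate 1 or 3, and with the length and GC offsets the log2 fold change was 0.17 (edgeR adjusted p = 0.167). UQCRH itself had a log2 fold change of 0.31 (edgeR adjusted p = 0.0553). Per kb of exon, UQCRHL made up 38.1% ± 0.806 of the sum of UQCRH and UQCRHL in vehicle and 39.9% ± 0.750 after guadecitabine (SD, n = 3). As 78.9% of the stretches of UQCRHL and 78.8% of those of UQCRH occur once in the genome, reads can be shared between this pair, and the rise of the copy apart from its parent is uncertain. The percentage of UQCRHL comes from 227 stretches of the closest GENCODE transcript, which is shorter than the 538 bp of exon counted.

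Among the members with a COX symbol, the calls of the main fit fell on tissue isoforms and on COX7A2L. The ubiquitous COX subunits were not called in that fit, though COX7A2 and COX8A were in some alternatives. NDUFA4, a ubiquitous protein now counted with complex IV, was called higher, as given above. COX7A1, the form of subunit VIIa found in heart and muscle, had 1, 1 and 13 counts in vehicle replicates 1 to 3 and 61, 46 and 71 after guadecitabine, or 0.951, 1.05 and 10.0 against 49.3, 93.5 and 71.6 normalized counts. The vehicle signal came almost wholly from replicate 3, and the groups did not overlap. The log2 fold change was 4.01 (SE 0.763, edgeR adjusted p = 0.00331), the largest of all members, with a 95% interval from 2.28 to 5.73. Without vehicle replicate 3 it was 5.93 (edgeR adjusted p = 2.80e-05), and its 178 counts after guadecitabine against 2 in vehicle replicates 1 and 2, scaled by summed depth, gave a ratio of 65.4 with an exact counting interval from 17.8 to 544, which covers counting error only. COX7A1 passed the filter on low counts through the guadecitabine libraries, was not tested when 10 counts were needed in every sample, and kept its call without any filter (log2 fold change 4.08, edgeR adjusted p = 0.00311). COX7A2, the ubiquitous form, had 3833, 3939 and 4022 normalized counts in vehicle and 4342, 4702 and 5144 after guadecitabine, a log2 fold change of 0.27 (SE 0.101, edgeR adjusted p = 0.0642). The groups of COX7A2 did not overlap. It was called higher with DESeq2's Wald test (0.26, DESeq2 adjusted p = 0.0377) and with library totals (0.30, edgeR adjusted p = 0.0389). The same held without guadecitabine replicate 1 (0.32, edgeR adjusted p = 0.0347). Per kb of exon, COX7A1 made up 0.0921% ± 0.118 of the sum of COX7A1 and COX7A2 in vehicle and 1.37% ± 0.391 after guadecitabine (SD, n = 3), so that nearly all of the subunit's RNA was of the ubiquitous form in every library. COX7A1 lies on chromosome 19 of hg19 from 36641824 to 36643771 on the minus strand, with 3 exons in its closest GENCODE transcript, in which each 50-base stretch is unique. The muscle markers MYH7, MYH2, ACTA1, CKM, TNNT2 and MYL2, all 6 in the table and 3 of them tested, had a summed level of 1545.6 to 1918 normalized counts in vehicle and 961 to 1313 after guadecitabine. That sum is mostly ACTA1. MYH7 and TNNT2 had 0 counts in all libraries except vehicle replicate 3, with 42 and 14. MYL2 had 1, 1 and 5 counts in vehicle and 36, 20 and 50 after guadecitabine, and CKM had 0, 0 and 14 and then 15, 7 and 16. Fibroblast markers, all 6 in the table and 5 of them tested, had a summed level of 1088 to 1492 normalized counts in vehicle and 2344 to 3110 after guadecitabine. COL1A1 alone of these was called higher (log2 fold change 3.38, edgeR adjusted p = 3.34e-05), and COL1A2 and PDGFRB were called lower (-0.61 and -0.92, edgeR adjusted p = 0.0106 and 0.00116). The part of muscle and fibroblast markers in the result was not tested.

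COX7B2 is the testis form of subunit VIIb, and COX8C that of subunit VIII. COX7B2 had 5, 6 and 6 counts in vehicle and 34, 12 and 33 after guadecitabine, or 4.76, 6.33 and 4.63 against 27.5, 24.4 and 33.3 normalized counts. The replicates of each group were close to each other. The log2 fold change was 2.43 (SE 0.545, edgeR adjusted p = 0.00757), or 5.38-fold, and the call was lost only without guadecitabine replicate 3 among 13 alternatives. COX7B2 passed the filter through the guadecitabine libraries and was not tested when 10 counts were needed in every sample, and without any filter its edgeR adjusted p was 0.0453. COX7B, the ubiquitous form, had 1653, 1206 and 2039 normalized counts in vehicle and 1586, 1441 and 1808 after guadecitabine, a log2 fold change of -0.02 with a 95% interval from -0.43 to 0.39. Per kb of exon, COX7B2 made up 0.290% ± 0.131 of the sum of COX7B2 and COX7B in vehicle and 1.45% ± 0.0624 after guadecitabine (SD, n = 3). COX8C had 0, 0 and 1 counts in vehicle and 9, 5 and 9 after guadecitabine, too few for the filter. Its 23 counts after guadecitabine against 1 in vehicle, scaled by the summed depth of each group, gave a ratio of 27.9 with an exact counting interval from 4.53 to 1148, which covers counting error only. When all genes were tested without the filter, COX8C had an edgeR adjusted p of 0.134. Its ubiquitous partner COX8A, the member with the highest level per kb in both groups, had 11453, 11535 and 9650.1 normalized counts in vehicle and 8798, 11068 and 10129 after guadecitabine, with overlapping groups. COX8A was called lower with the length offset (-0.33, edgeR adjusted p = 0.0187) and with the length and GC offsets (-0.31, edgeR adjusted p = 0.0163). COX8C lies within the span of UNC79 on the same strand, and UNC79 had a log2 fold change of -1.38 (edgeR adjusted p = 0.445).

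**Figure D3:**
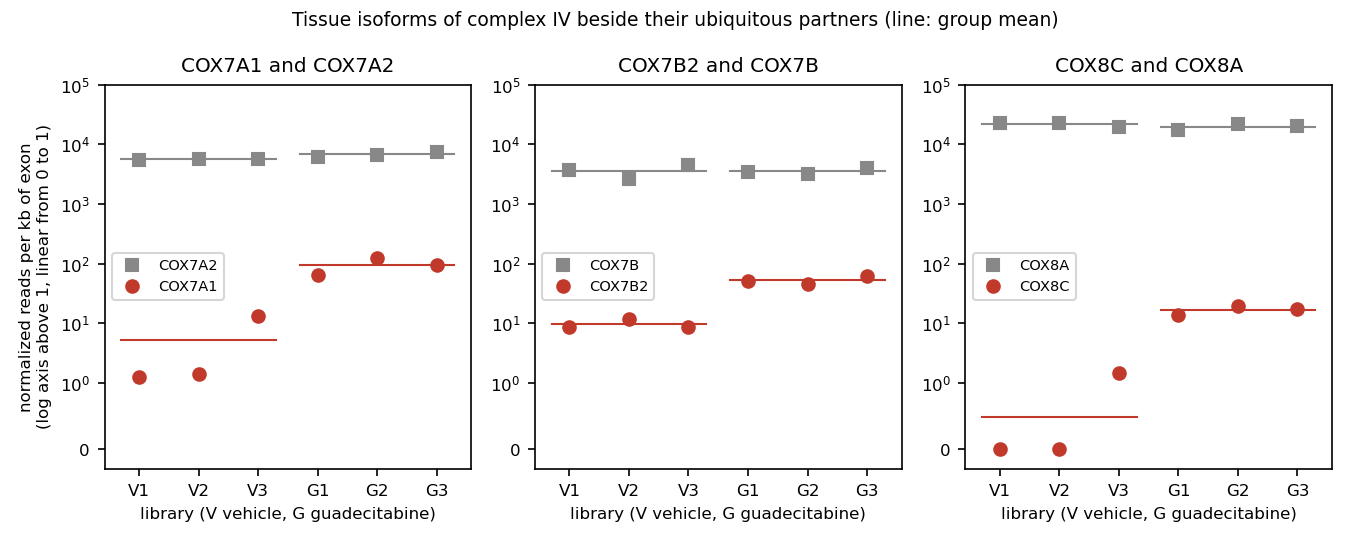
Normalized reads per kb of exon in each library for COX7A1, COX7B2 and COX8C (red circles) and their ubiquitous partners (grey squares), on an axis that is logarithmic above 1 and linear from 0 to 1, with lines at group means. The red points of the guadecitabine libraries lie above those of vehicle in each panel and remain far below the grey points, which overlap or nearly overlap between the groups.

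The upstream sequences of these testis isoforms and their partners are shown because guadecitabine acts on DNA methylation, which in human DNA is set mostly at the dinucleotide CpG. Each run holds the 250 bases before the RefSeq start on GRCh38.p14, 5′ to 3′ on the gene's strand, with every CpG in capitals. Methylation was not measured in these data.
COX7B2 (chr4:46909246-46909495, minus strand): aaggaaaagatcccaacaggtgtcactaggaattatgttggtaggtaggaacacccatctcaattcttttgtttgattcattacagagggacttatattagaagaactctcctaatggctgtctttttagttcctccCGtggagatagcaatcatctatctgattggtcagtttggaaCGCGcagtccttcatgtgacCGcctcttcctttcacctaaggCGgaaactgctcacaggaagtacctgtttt
COX7B (chrX:77899218-77899467, plus strand): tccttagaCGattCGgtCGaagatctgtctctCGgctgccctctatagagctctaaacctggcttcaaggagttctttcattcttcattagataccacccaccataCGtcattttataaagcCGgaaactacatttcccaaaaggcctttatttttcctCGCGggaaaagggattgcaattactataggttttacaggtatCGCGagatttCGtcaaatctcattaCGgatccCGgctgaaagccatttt
COX8C (chr14:93346932-93347181, plus strand): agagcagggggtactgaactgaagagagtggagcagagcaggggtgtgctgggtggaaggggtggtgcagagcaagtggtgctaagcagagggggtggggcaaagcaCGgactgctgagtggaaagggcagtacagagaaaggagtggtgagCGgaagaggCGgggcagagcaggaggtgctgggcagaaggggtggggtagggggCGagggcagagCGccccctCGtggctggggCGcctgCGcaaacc
COX8A (chr11:63974370-63974619, plus strand): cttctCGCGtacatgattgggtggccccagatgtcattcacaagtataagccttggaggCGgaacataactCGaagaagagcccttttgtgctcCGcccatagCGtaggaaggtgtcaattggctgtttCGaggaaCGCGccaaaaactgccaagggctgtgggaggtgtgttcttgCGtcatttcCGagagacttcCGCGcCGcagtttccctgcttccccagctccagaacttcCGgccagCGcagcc

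The window of COX7B2 held 5 CpG and that of COX7B 13, and the window of COX8C held 8 and that of COX8A 16. The median over the promoters of protein-coding genes in the same 250 bases was 16. Of those promoters 25.4% held no more CpG than COX7B2 and 32.6% no more than COX8C, so both isoforms lay in the lower part of the range without standing outside it.

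COX7A2L, which promotes the joining of complexes III and IV, had 3452, 3176 and 2897 normalized counts in vehicle and 4257, 4209.6 and 4694 after guadecitabine. All guadecitabine libraries were above the vehicle libraries, with a log2 fold change of 0.47 (SE 0.106, edgeR adjusted p = 0.00807), and the call was lost only without guadecitabine replicate 3. COX4I1, the ubiquitous form of the largest nuclear subunit, had a log2 fold change of 0.16 (95% interval from -0.09 to 0.41). COX6A1 and COX6B1 had log2 fold changes of -0.03 and 0.04. The value of COX6A1 is less certain, since 37.7% of the 50-base stretches of its exons occur once in the genome. Among the rare forms, COX6B2 had 1, 0 and 16 counts in vehicle and 2, 1 and 8 after guadecitabine, and NDUFA4L2 had 4, 2 and 43 and then 3, 1 and 5. Neither passed the filter, and the high values of vehicle were those of replicate 3 alone.

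Complex V held the member with the largest fall. ATP5G1, ATP5G2 and ATP5G3 encode the same mature c subunit, which forms the rotating ring of ATP synthase, behind different import sequences. ATP5G2 had 3497, 2541 and 2285 normalized counts in vehicle and 1556, 1650.5 and 1692 after guadecitabine. The guadecitabine libraries were close together and all below vehicle. The log2 fold change was -0.77 (SE 0.157, edgeR adjusted p = 0.00478), or 0.588-fold, with a 95% interval from -1.12 to -0.41, and the call held in all 14 alternatives. ATP5G1 had 2194, 2250.5 and 1672 normalized counts in vehicle and 2056, 2791 and 2732 after guadecitabine, a log2 fold change of 0.31 (SE 0.158, edgeR adjusted p = 0.155). ATP5G3 had 4775, 4528 and 3008 in vehicle and 3167, 3693 and 3781 after guadecitabine, a log2 fold change of -0.21 (edgeR adjusted p = 0.364). Both had overlapping groups.

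The c subunit genes were also compared as shares of their summed reads per kb of exon. ATP5G1 supplied 41.4%, 47.2% and 45.5% of this sum in vehicle replicates 1 to 3 and 55.6%, 60.5% and 59.4% after guadecitabine. ATP5G2 supplied 36.6%, 29.6% and 34.5% in vehicle and 23.4%, 19.9% and 20.4% after guadecitabine. Neither gene's shares overlapped between groups, and the exact two-sided permutation test gave p = 0.1 for each, the smallest that 3 against 3 libraries allow. The shares are parts of the same sum, so a fall in the share of ATP5G2 must raise the rest. The tests of ATP5G1 and ATP5G2 are therefore not separate results, and the level of ATP5G1 itself was not called. The share of ATP5G3 was 21.8% ± 1.62 in vehicle and 20.2% ± 0.696 after guadecitabine (SD, n = 3). The summed level of the trio, 5691 to 8211 reads per kb in vehicle and 5719 to 7138 after guadecitabine, overlapped. ATP5G2 lies on chromosome 12 of hg19 from 54058944 to 54070512 on the minus strand, and all 50-base stretches of its exons are unique.

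**Figure D4:**
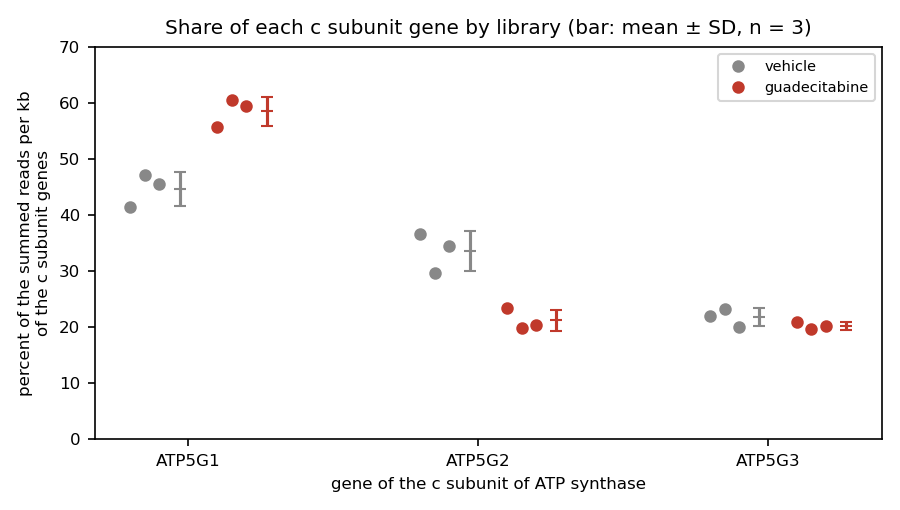
Share of ATP5G1, ATP5G2 and ATP5G3 in the summed normalized reads per kb of the c subunit genes, with a point for each library and the mean ± SD (n = 3) beside them. ATP5G1 has a mean of 44.7% in vehicle and 58.5% after guadecitabine and ATP5G2 of 33.6% and 21.2%, with no overlap of the libraries, while the points of ATP5G3 overlap. The shares depend on each other, as they are parts of the same sum.

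ATP5C1 and ATP5H also fell. ATP5C1, the gamma subunit of the central stalk, had 3811, 3678 and 3442 normalized counts in vehicle and 2833, 3008 and 2924 after guadecitabine, a log2 fold change of -0.32 (SE 0.0950, edgeR adjusted p = 0.0267). ATP5H, the d subunit of the peripheral stalk, had 1983, 1965 and 1742 normalized counts in vehicle and 1435, 1421 and 1602 after guadecitabine, a log2 fold change of -0.35 (SE 0.107, edgeR adjusted p = 0.0289). In both genes the groups lay apart by a small margin, and the calls were kept in 8 and 7 of 14 alternatives. The alpha and beta subunits of the catalytic head, ATP5A1 and ATP5B, were not called, with log2 fold changes of -0.20 and -0.05 and overlapping groups. ATP5B was among the members with the highest level per kb, behind COX8A, ATP5E and COX7C in both groups.

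NRF1, the GABP factor of the ETS family and YY1 are transcription factors known to bind promoters of respiratory chain genes. Of the members' genes 68 matched RefSeq promoters, with 82 promoters from 250 bases before to 50 bases after the start. The NRF1 motif, searched on both strands as GCGCA, any base and GCGC, occurred in 16 of them, or 19.5%, against 7.39% of the promoters of protein-coding genes. The ETS motif CCGGAAGT occurred in 13.4% against 5.34%, and the YY1 motif AAGATGGCG in 12.2% against 2.41%. Of 15 tested members with an NRF1 match 0 were higher and 4 lower, and of 50 matched members without it 5 were higher and 6 lower, with all genes at 19.3% and 18.4%. COX8C also had a match, beginning 15 bases before its start, but did not pass the filter and is not among these. It had 0, 0 and 1 counts in vehicle and 9, 5 and 9 after guadecitabine. The 4 lower members, ATP5C1, NDUFA12, NDUFB4 and UQCRC1, are shown with 30 bases around each match on GRCh38.p14, 5′ to 3′ on the gene's strand, with the match in capitals. The matches of the other tested members, none of them called, are not shown. A match is a description of the letters and no evidence of binding, and a link between motif and call was not tested.
ATP5C1 (chr10:7788145-7788174, plus strand): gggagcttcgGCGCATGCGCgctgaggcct
NDUFA12 (chr12:95003794-95003823, minus strand): acctagctctGCGCACGCGCagagccacca
NDUFB4 (chr3:120596167-120596196, plus strand): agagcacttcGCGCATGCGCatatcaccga
NDUFB4 (chr3:120596263-120596292, plus strand): ctctgctaacGCGCAGGCGCacttcctgaa
NDUFB4 (chr3:120596318-120596347, plus strand): cctcagaatcGCGCAGGCGCaattgtgccc
UQCRC1 (chr3:48609674-48609703, minus strand): gtacggtactGCGCCTGCGCcgcgaccgcc

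The genes around the respiratory chain were counted with the same fit, which called 19.3% of all genes tested higher and 18.4% lower. Of 47 assembly factors of the complexes, 10 were higher and 5 lower, or 21.3% and 10.6%, with a median log2 fold change of 0.04. C6orf57, the assembly factor SDHAF4 of succinate dehydrogenase, had 419, 381 and 318 normalized counts in vehicle and 175, 201 and 212 after guadecitabine, a log2 fold change of -0.93 (SE 0.148, edgeR adjusted p = 0.00128). It lay in the opposite direction to SDHB. CYCS, which encodes cytochrome c, had 2649.9, 2278 and 1836 normalized counts in vehicle and 3020.2, 3992 and 3269.8 after guadecitabine, a log2 fold change of 0.60 (SE 0.157, edgeR adjusted p = 0.0152), and was the only gene called of 7 carriers and subunits outside the symbol rule. CYC1, the cytochrome c1 of complex III, and ATPIF1, the inhibitor of ATP synthase, had log2 fold changes of 0.13 and -0.36 and were not called (edgeR adjusted p = 0.628 and 0.184). Of 19 regulators of mitochondrial biogenesis, 1 was higher and 1 lower. C10orf2, the helicase of mitochondrial DNA, rose by a log2 fold change of 0.59 (SE 0.127, edgeR adjusted p = 0.00601), and PPARGC1A, the coactivator PGC-1alpha, named after its value was seen, had 69.4, 52.7 and 92.6 normalized counts in vehicle and 28.3, 16.3 and 23.2 after guadecitabine, a log2 fold change of -1.63 (SE 0.379, edgeR adjusted p = 0.00897).

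Calls in the mitochondrial ribosome, the citrate cycle and further lists were counted in the same way. Over all genes tested 19.3% were called higher and 18.4% lower. Of 77 mitochondrial ribosomal protein genes 17 were higher and 6 lower, or 22.1% and 7.79%, with a median log2 fold change of 0.07 and MRPL32 at 0.89 (edgeR adjusted p = 0.000175). Of 14 citrate cycle enzymes 1 was higher and 3 lower. Of 83 cytosolic ribosomal protein genes tested 3 were higher and 6 lower, with RPL22L1 at 1.24 (edgeR adjusted p = 2.88e-05). Of 19 glycolysis enzymes tested 1 was higher and 17 lower, with a median log2 fold change of -0.72, against -0.06 over the respiratory chain members, and ENO1 at -1.25 (edgeR adjusted p = 6.04e-05). The differences between these lists were not tested.

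**Figure D5:**
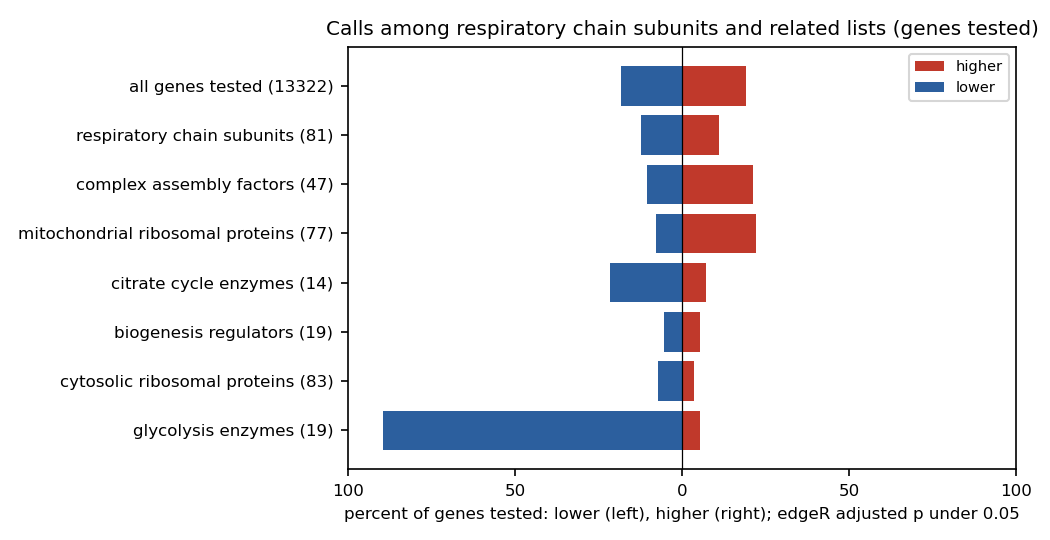
Percent of the genes tested in each list that were called lower (blue, to the left) or higher (red, to the right), with the number tested in parentheses and all genes at the top. The respiratory chain subunits, at 11.1% higher and 12.3% lower, lie below the bar of all genes on both sides, and the glycolysis enzymes reach 89.5% lower.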

How the data were processed

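RNA of MDA-MB-231 cells was sequenced from 3 vehicle and 3 guadecitabine libraries, grouped by their labels. The authors aligned reads to hg19 with STAR 2.3.1z, counted reads in exons with iRNA-seq and deposited raw counts per RefSeq transcript; library totals are given above. Strand use and the handling of multiply mapping reads are not given in the sources used here. The authors also deposited regularized log2 values and, from their DESeq2 comparison, a mean normalized signal, fold changes with errors, test scores and p-values; none of these was used.

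The test was that of edgeR 4.0.16 under R 4.3.3 (TMM normalization, filterByExpr with a minimum count of 10, quasi-likelihood test, Benjamini-Hochberg adjustment over 13322 genes), after the script was tested on simulated data. Normalized counts are scaled to the mean library total, and reads per kb divide them by the deposited exon length. Alternatives were a replicate block, DESeq2 1.42.0, its size factors, library totals, other filters, a 2-fold threshold, a length offset and each library left out. Length with GC offsets, and the removal of vehicle replicate 3 with guadecitabine replicate 2, were added after seeing the data. The floor of detection is 3 counts per library. Exon structure, GC content and the uniqueness of 50-base stretches came from the closest GENCODE transcript on GRCh37, which is hg19, and promoters from RefSeq on GRCh38.p14, with Python 3.11.15.

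Members and lists were chosen with earlier results of these data known. Genes were named by a rule: SDHA to SDHD, up to 4 called members per direction in each other complex, core subunits, isoform pairs, the largest rise and fall, CYC1, CYCS and ATPIF1, and the gene with the smallest adjusted p of each other list. Some genes under this rule are not reported here and not drawn in the figures, but all are in the counts. Leukocyte markers were at 143 to 261 normalized counts in vehicle and 181 to 197 after guadecitabine, and the summed level of ESR1, PGR, ERBB2 and CDH1 was 1675 to 1835 and 965 to 1134. The latter sum is mostly ERBB2.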

Additional observations from a re-analysis of the deposited data

How the results depend on the processing

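Guadecitabine replicate 2 was the shallowest library, and vehicle replicate 3 held counts at genes silent in the other vehicle libraries, so members with few counts rest on few reads. In 77 of 81 members tested the interval was narrow enough to lie within 2-fold of no change. With a replicate block 8 members were higher and 9 lower, complex V had 1 lower, and NDUFS7 was called lower (-0.52, edgeR adjusted p = 0.0430). Of all genes tested 34.9% were called with that block. The sources do not say whether libraries with the same number came from the same experiment, and the main fit set no block. The correlations of same-numbered deviations were -0.05, 0.05 and -0.04. Such low correlations cannot show that the libraries were unpaired. With the block the other counts of calls stayed within 1.5 times. The cause of the changes listed here was not tested.

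With the 2-fold threshold 1 member was higher and 0 lower, with 1 higher in complex IV and 0 in complexes I, II and III, and 0 lower in complexes I, III and V. Without the filter 6 members were lower, and complex III had 0 higher and 0 lower and complex V 1 lower, with 25.6% of all genes called. With at least 10 counts in every sample complex III had 2 higher and complex IV 1, with 40.4% of all genes called. DESeq2's Wald test gave 2 higher in complex III, and library totals gave 2 higher in complex III and 1 in complex V. Of all genes 40% and 37.4% were called in these fits. With the length offset 21 members were lower, 12 in complex I, 1 in complex II, 2 in complex III and 2 in complex IV, with 0 higher in complexes II and III, and the median log2 fold change of the members was -0.18. With the length and GC offsets 30 were lower, 17 in complex I, 1 in complex II, 3 in complex III, 3 in complex IV and 6 in complex V, with 2 higher in complex I, 0 in complexes II and III and 1 in complex V, and the median was -0.24. With vehicle replicate 3 and guadecitabine replicate 2 both left out 25 were lower, 16 in complex I, 1 in complex II, 2 in complex III, 1 in complex IV and 5 in complex V.

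With each library left out in turn, 3 (without guadecitabine replicate 3) to 13 members were higher and 4 (without vehicle replicate 1) to 16 (without vehicle replicate 3) lower. The share of all genes tested that was called moved as well. It was 24.5% without guadecitabine replicate 3, 25.8% without vehicle replicate 1 and 41.9% without vehicle replicate 3. In complex I 2 to 4 were higher and 3 to 10 lower, in complex II 0 to 1 higher, in complex III 0 to 2 higher and 0 to 1 lower, in complex IV 1 to 4 higher, and in complex V 0 to 2 higher and 1 to 5 lower.

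Of the named members, 8 that were not called changed sign in some setting. COX6A1 was at 0.0039 with library totals, COX6B1 at -0.14 with the length offset and -0.14 with both offsets, NDUFS1 at -0.032 and UQCRC2 at -0.13 with both offsets. COX7B was at 0.0045 with the replicate block, 0.0052 with library totals, 0.0079 without the filter and 0.25 with both libraries left out. With each library left out, the log2 fold change ran from -0.13 to 0.016 for ATP5B, -0.11 to 0.035 for COX6A1, -0.069 to 0.094 for COX6B1, -0.19 to 0.17 for COX7B, -0.085 to 0.19 for NDUFS1, -0.25 to 0.025 for NDUFS3, -0.30 to 0.057 for NDUFV1 and -0.14 to 0.21 for UQCRC2.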
